A study of Mus musculus with 6 samples.

Results

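The MHC class II genes described here are H2-Aa, H2-Ab1 and H2-Eb1 (the classical chains), H2-DMa, H2-DMb1 and H2-DMb2 (the DM chains), H2-Oa and H2-Ob (the DO chains), Cd74 (the invariant chain) and Ciita (the transactivator of the others). They were chosen by symbol, 10 of the 32285 genes counted, and each symbol matched 1 gene. Their unique molecular identifiers (UMIs, 1 per captured transcript) were summed over marker-gated cells of colon tumours of mice. The gates took 1723 dendritic cells, 2379 macrophages, 4678 monocytes, 807 B cells, 1593 neutrophils and 10550 T cells from 32167 kept cells, and no class II gene was used in a gate. Dendritic cells were gated further into cDC1 and cDC2 (the conventional types 1 and 2), mature and plasmacytoid cells. T cells of mice do not transcribe class II genes in textbook accounts, so their level stood for free RNA and for cells sharing a droplet.

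There were 6 libraries of CD45+ cells, 3 with the genotype label SOX17KO and 3 labelled Control, made with droplet-based 10x Genomics 3' chemistry, version v3. A pair of them carried no time in its labels and is called untimed, a pair was labelled 1wk and a pair 2wk; the labels do not say from which event the weeks count. Living cells negative for EpCAM, an epithelial surface protein, and positive for CD45, a protein of white blood cells, were sorted from digested tumours. Per the series' design text each condition was a pool of tumours of 5 mice, so a library is a pool. With 1 library per genotype and collection, no test here had replicate pools of a condition. The p-values between cell classes measure how the class difference varies between libraries. Those between genotypes measure how the difference varies between collections, and those between collections how it varies between genotypes. The cells in which the SOX17KO mice lacked Sox17, the strain, the age and any treatment common to both genotypes are not given in the sources used here.

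A class II molecule is a pair of an alpha and a beta chain that holds peptides from taken-up protein and shows them to CD4 T cells. The invariant chain, made by Cd74, blocks the groove until the endosome, where proteases cut it down, DM then trades its last fragment for a peptide, and DO binds DM and restrains it. Dendritic cells, macrophages and B cells are the professional presenters. Ciita is the main known driver of the set's transcription, and mature dendritic cells are known to shut Ciita off after a burst of synthesis.

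Among the members on chromosome 17, the order along the mouse genome (GRCm38, GENCODE vM21 annotation) was H2-Oa at chr17:34092340-34095234, H2-DMa at chr17:34119541-34139101, H2-DMb2 at chr17:34143307-34151555, H2-DMb1 at chr17:34153072-34160230, H2-Ob at chr17:34238903-34254414, H2-Ab1 at chr17:34257689-34269419, H2-Aa at chr17:34282744-34287823 and H2-Eb1 at chr17:34305867-34316674. H2-Aa lies on the reverse strand and the others on the forward strand. Ciita lies apart, at chr16:10480059-10528418. Class II promoters are known for an X box, with a cyclic AMP type X2 part, and a Y box, whose core is an inverted CCAAT. RefSeq promoter windows (GRCm38.p6, 250 bases before to 50 after a start) were at hand for 7 of the 10 members, and 6 of them held GATTGG, the inverted CCAAT, on the gene's strand within 100 bases before the start. The 60 bases around it are shown 5′ to 3′ on the gene's strand, to set H2-DMb1 and H2-DMb2, whose levels split by cell class, beside the other members, with GATTGG and, where present, AACNGATG in capitals.
H2-Aa: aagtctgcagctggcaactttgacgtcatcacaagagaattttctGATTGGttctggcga
H2-Eb1: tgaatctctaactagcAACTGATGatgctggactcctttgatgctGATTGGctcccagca
H2-DMb1: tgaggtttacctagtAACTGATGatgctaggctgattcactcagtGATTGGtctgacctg
H2-DMb2: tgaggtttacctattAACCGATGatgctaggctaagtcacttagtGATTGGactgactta
H2-Oa: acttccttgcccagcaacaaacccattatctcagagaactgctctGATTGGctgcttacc
H2-Ob: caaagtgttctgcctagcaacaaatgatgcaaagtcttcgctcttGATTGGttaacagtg

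The stretches were chr17:34287858-34287917 for H2-Aa, on the reverse strand, and on the forward strand chr17:34305762-34305821 for H2-Eb1, chr17:34153084-34153143 for H2-DMb1, chr17:34145113-34145172 for H2-DMb2, chr17:34092290-34092349 for H2-Oa and chr17:34238802-34238861 for H2-Ob. GATTGG began 49 bases before the RefSeq start of H2-Aa, 60 before H2-Eb1, 62 before H2-DMb1, 91 before H2-DMb2, 44 before H2-Oa and 58 before H2-Ob. The RefSeq starts differ from the GENCODE spans given above for some genes. The stretches of H2-DMb1 and H2-DMb2 lie inside those spans, and that of H2-Oa partly so. AACNGATG stood 21 bases before GATTGG in H2-Eb1 and 22 bases before it in H2-DMb1 and H2-DMb2. Of all 32851 promoter windows, 4.66% held GATTGG at such a place, 16.1% held it on either strand anywhere and 2.32% held AACNGATG on either strand. Both motifs in this order, 15 to 25 bases apart, were in 5 windows (0.0152%), those of H2-DMb1, H2-DMb2, H2-Eb1, H2-Eb2 and BC051142. H2-DMb1 and H2-DMb2, neighbouring copies, had the same base at 52 of the 60 positions shown. A match is a string of letters and not a measured binding site.

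The libraries held 2933 to 6860 kept cells with a median of 3003 to 5873.5 UMIs each, and 35 to 49 barcodes of each were also seen in another library. Sox17 had 3 to 20 UMIs per library in both genotypes, too few among sorted immune cells to check the genotype labels, and Ptprc, the gene of CD45, had a UMI in 86.7% to 93.7% of cells. The gate left out 4005 cells that missed its margin by 1 marker and 3640 cells with macrophage and monocyte markers together, and 4830 gated cells met the margin exactly. Sums of under 20 cells were not used, which left out macrophages of the untimed Control library (5 cells), monocytes of the untimed SOX17KO library (18 cells) and neutrophils of that library (12 cells). T cells of the 1wk libraries stood apart: their 8 macrophage markers summed to 584 counts per 1000000 UMIs (CPM) in SOX17KO and 681 CPM in Control, against 14.9 to 100 CPM in T cells of the other 4 libraries, with a UMI for all 8 markers in each. Comparisons with T cells and several between other classes are therefore also given without both 1wk libraries.

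By mean level, dendritic cells and macrophages carried the most mRNA of the classical chains, B cells less, monocytes less again, and neutrophils no more than T cells. B cells and monocytes were not tested against each other. H2-Aa, the alpha chain of the I-A molecule, was at a lowest, median and highest level of 3875, 5731 and 6258 CPM in dendritic cells of the 6 libraries. In macrophages H2-Aa was at 5425, 3337 and 6624 CPM in SOX17KO untimed, 1wk and 2wk and at 3706 and 5582 CPM in Control 1wk and 2wk. The ranges of these classes overlapped. H2-Aa lay between 2140 and 2982 CPM in B cells, below every macrophage value, and between 521 and 2316 CPM in monocytes, which overlapped with B cells. H2-Ab1, its beta chain, averaged 5719 ± 882 CPM in dendritic cells, 4443 ± 1103 in macrophages (n = 5), 1981 ± 126 in B cells and 1488 ± 581 in monocytes (n = 5; mean ± SD, n = 6 libraries elsewhere). H2-Eb1, the beta chain of I-E, averaged 4372 ± 536 CPM, 3526 ± 909, 1811 ± 250 and 910 ± 309 in the same classes, and here B cells and monocytes did not overlap.

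**Figure D1:**
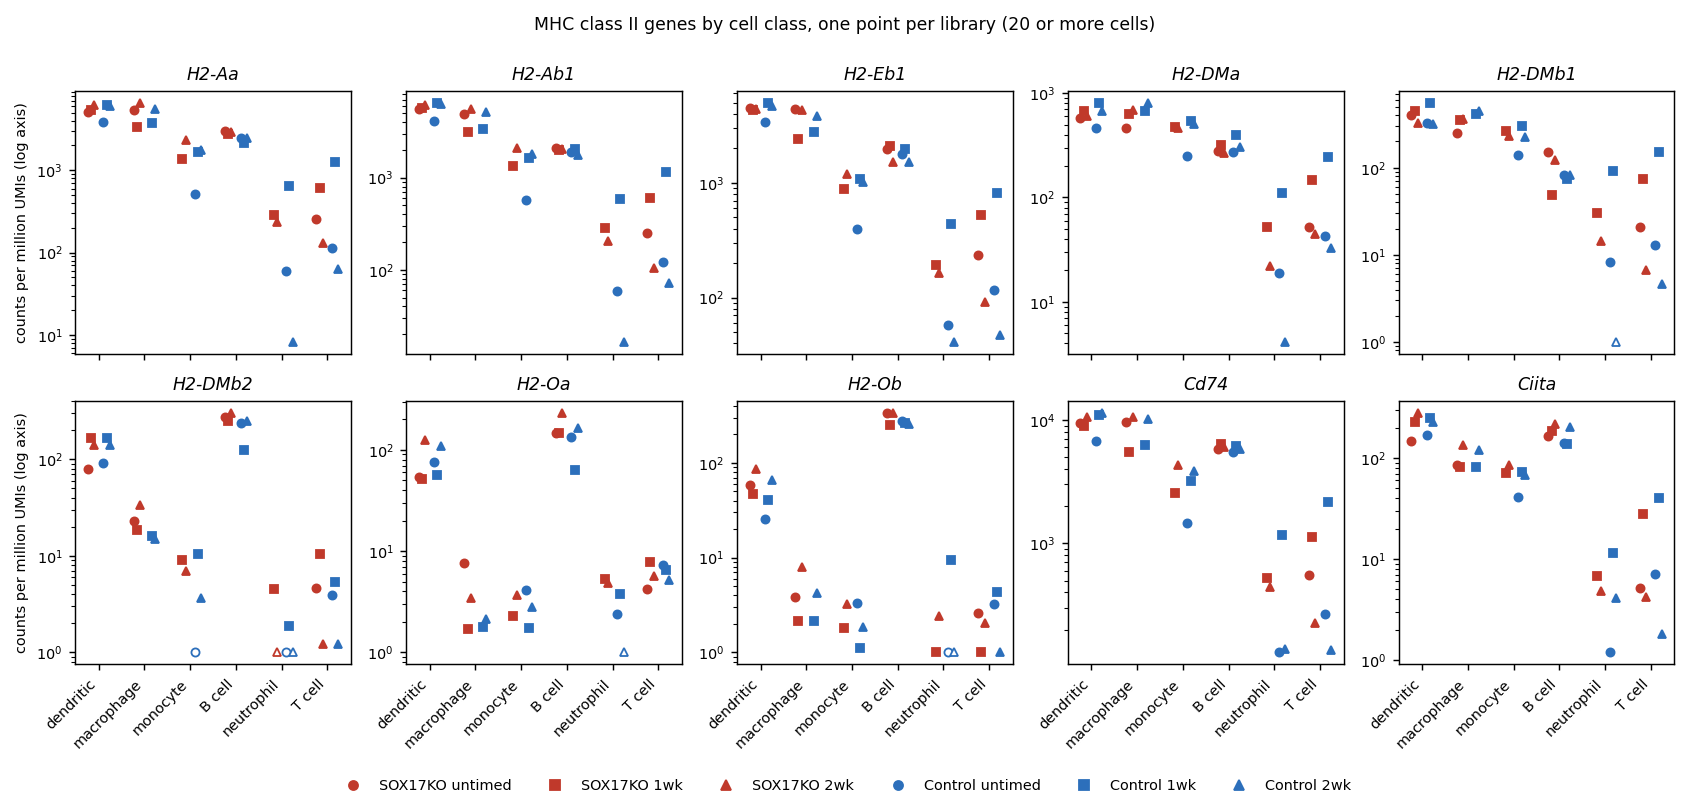
Level of each class II gene in the 6 cell classes, in CPM on a log axis, with 1 point per library of at least 20 cells; values under 1 CPM are drawn at 1 and open markers had no UMI. H2-Aa reaches 6624 CPM in macrophages and 6258 CPM in dendritic cells, while H2-Oa and H2-Ob stay under 9 CPM in macrophages and monocytes.

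Against T cells, all 10 members passed the test as higher in dendritic cells, as did 26.8% of the 10500 genes tested, and all 10 in B cells, as did 14.5% (edgeR's quasi-likelihood test with the library as a block, Benjamini-Hochberg adjusted over all genes). The members' median log2 difference was 4.31 in dendritic cells and 3.10 in B cells, beside medians of -0.06 and -0.25 over all genes. Macrophages were higher than T cells for 8 members (28.9% of genes) and lower for 1, H2-Oa (30.5%), and monocytes were likewise higher for 8 (31.5%) and lower for H2-Oa (34.6%). H2-Aa was higher by 4.30 ± 0.57 on the log2 scale in dendritic cells (edgeR, adjusted p = 1.90e-07), by 4.10 ± 0.58 in macrophages (6.23e-07), by 3.02 ± 0.54 in B cells (4.07e-05) and by 2.57 ± 0.55 in monocytes (0.000167; estimate ± SE throughout). Without both 1wk libraries all 10 members were again higher in dendritic and in B cells, 9 in macrophages and 7 in monocytes, and none was called lower; the member added in macrophages was H2-Ob and the one lost in monocytes H2-DMb2. H2-Aa then stood 5.42 ± 0.52 above T cells in dendritic cells (edgeR, adjusted p = 4.32e-08), 5.48 ± 0.54 in macrophages (7.42e-08), 4.19 ± 0.49 in B cells (1.08e-06) and 3.79 ± 0.52 in monocytes (3.88e-06).

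Dendritic cells were higher than macrophages for 4 members, beside 18.2% of genes, and the classical chains were not among them. The log2 difference, dendritic minus macrophage, was 0.21 ± 0.52 for H2-Aa (edgeR, adjusted p = 0.804), 0.40 ± 0.49 for H2-Ab1 (0.572) and 0.33 ± 0.44 for H2-Eb1 (0.597). Each estimate was smaller than its SE, and without both 1wk libraries that of H2-Aa was -0.07 ± 0.47. The dendritic class, however, pooled unlike subsets. H2-Ab1 was at least 6095 CPM in cDC1 and 6540 in cDC2, against at most 5563 in macrophages. It was at most 3316 CPM in mature and 1080 CPM in plasmacytoid cells. H2-Eb1 was at least 4582 CPM in cDC1 and 5001 in cDC2, against at most 4414 in macrophages. H2-Aa overlapped, from 5026 and 5914 CPM up, against at most 6624 in macrophages. Subsets were not tested against macrophages. Against B cells, dendritic cells were higher for 5 members (33.9% of genes), H2-Ab1 by 1.77 ± 0.48, H2-Eb1 by 1.55 ± 0.42 and H2-Aa by 1.29 ± 0.50 among them. The H2-Aa call (adjusted p = 0.0279 in edgeR) was lost when any SOX17KO library was left out, with values of 1.23 to 1.33, without TMM scaling, at 0.99, and at the 5% mitochondrial limit, at 1.08. Without both 1wk libraries this call was kept, at 1.22 ± 0.44 (edgeR, adjusted p = 0.0256). Macrophages, in a comparison added after the levels were seen, were higher than B cells for 4 members (34.8%), with H2-Ab1 at 1.37 ± 0.50 and H2-Eb1 at 1.22 ± 0.45; both calls were lost without the SOX17KO untimed library, without the SOX17KO 2wk library and with the stricter gate, at 1.00 to 1.34, and without TMM, with clusters and at the 5% mitochondrial limit, at 0.73 to 1.18, and H2-Eb1 also without Control 2wk, at 0.97. Macrophages were higher than monocytes for 2 members (9.94%), H2-Eb1 by 1.77 ± 0.47 (edgeR, adjusted p = 0.00829) and H2-DMb2 by 1.34 ± 0.41 (0.0222), while H2-Aa at 1.53 ± 0.55 (0.0509), H2-Ab1 at 1.42 ± 0.52 (0.0559) and Cd74 at 1.26 ± 0.48 (0.0636) lay just past the threshold. With classes taken from clusters both calls were lost, at 0.55 and 0.37, and the H2-DMb2 call was lost without Control 2wk or SOX17KO 2wk. Without both 1wk libraries both were kept, at 1.96 ± 0.44 and 2.45 ± 0.65 (edgeR, adjusted p = 0.0103 and 0.0304). The calls of macrophages over B cells were then kept too, H2-Ab1 at 1.61 ± 0.45 (edgeR, adjusted p = 0.00581) and H2-Eb1 at 1.52 ± 0.41 (0.00422). Monocytes were higher than neutrophils for 7 members (34.2%).

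The classical chains were spread differently over the cells of each class. A macrophage held 41 to 84.5 summed UMIs of H2-Aa, H2-Ab1 and H2-Eb1 at the median and a dendritic cell 52 to 169, over libraries. Among monocytes the median was 0 in the untimed Control library and 5 to 10 in the others, and 60.4% of untimed Control monocytes had no such UMI, against 25.1% to 34.0% elsewhere. Between 13.2% and 40.2% of monocytes held at least 20 of these UMIs, beside 65.4% to 88.0% of macrophages and 66.2% to 89.2% of dendritic cells. Monocytes therefore held both cells with none and cells at the level of macrophages. The cells in the top 5% carried 26.6% to 55.5% of the monocyte UMIs. That share was 7.72% to 14.5% in B cells, 12.6% to 20.4% in dendritic cells and 15.3% to 21.3% in macrophages. In B cells of both 1wk libraries and of Control 2wk the top 5% was 1 cell. Markers of other classes moved with the level in monocytes: the 8 macrophage markers summed to 1055 CPM in untimed Control monocytes and 1262 to 1505 CPM in the others, and the 8 cDC1 markers to 125 and to 388 to 714.5 CPM. Their part in the result was not tested.

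**Figure D2:**
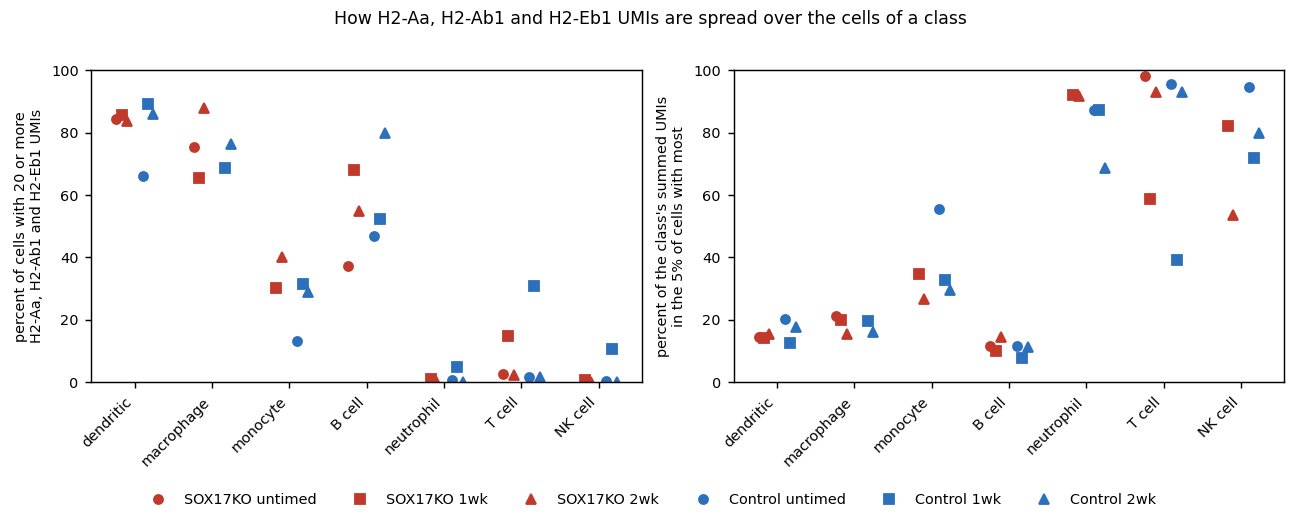
Left, percent of the cells of a class with at least 20 summed UMIs of H2-Aa, H2-Ab1 and H2-Eb1; right, percent of the class's summed UMIs held by the 5% of cells with most; 1 point per library of at least 20 cells, SOX17KO in red and Control in blue. Monocytes lie at 13.2% to 40.2% on the left, between the 65.4% to 88.0% of macrophages and the values of neutrophils, and the T cells of the 1wk libraries stand apart at 14.8% and 30.8%.

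After each cell was thinned to 1000 UMIs, H2-Aa had a UMI in 88.4% ± 4.73 of dendritic cells, 87.4% ± 11.2 of macrophages, 90.02% ± 4.54 of B cells, 42.3% ± 15.02 of monocytes and 4.02% ± 2.59 of neutrophils, against 9.49% ± 10.7 of T cells (mean ± SD over libraries). Without thinning the values were 94.3%, 93.2%, 98.0%, 54.7% and 6.69%, against 17.0% of T cells. The median cell held 8457 UMIs among dendritic cells, 5916 among macrophages, 2698 among B cells, 5463 among monocytes and 1950 among neutrophils, against 3962 among T cells. Thinning left out 31 dendritic cells, 71 macrophages, 38 B cells, 181 monocytes, 127 neutrophils and 210 T cells of under 1000 UMIs. After thinning, the mean share in neutrophils was below that in T cells, which ran from 2.59% to 29.1% over libraries. It was above the 3.26% ± 4.70 of natural killer cells, a further class that should lack class II. Whether the neutrophil share is background was not tested.

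T cells were taken as the floor. H2-Oa, though, averaged 6.11 CPM in T cells, 3.35 in macrophages and 2.94 in monocytes, and was at 4.24 to 7.76 CPM in T cells over libraries. The summed level of H2-Aa, H2-Ab1 and H2-Eb1 in T cells was 738, 1740 and 328 CPM in SOX17KO untimed, 1wk and 2wk and 354, 3233 and 184 CPM in Control untimed, 1wk and 2wk. It was high in the 1wk libraries of both genotypes. There, 14.8% of SOX17KO and 30.8% of Control T cells held at least 20 such UMIs, against 1.58% to 2.64% elsewhere, and outside 1wk the cells in the top 5% carried 93.0% to 98.1% of the T cell UMIs. Relative to 1wk, T cells fell for 8 members at 2wk (5.15% of genes fell) and for 7 in the untimed libraries (5.96%), and the macrophage markers given above moved the same way. With classes taken from clusters the counts were 3 and 0, with Cd74 in the untimed libraries at 0.17, and the stricter gate gave 3 for the untimed libraries. No member passed the test between neutrophils and T cells in edgeR, 0 had an unadjusted p under 0.05, DESeq2 called 0, and 71.0% of genes were called in one direction or the other. For H2-Aa the log2 difference, neutrophil minus T cell, was 0.02 ± 0.53. Library-size scaling without TMM shifted the median of all genes in that comparison to -1.10, against -0.40 with TMM, and H2-DMa was then called lower.

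The DM chains split by cell class. H2-DMa, the alpha chain, and H2-DMb1, a beta chain, were highest in dendritic cells and macrophages. H2-DMb2, the neighbouring beta chain gene, was highest in B cells and dendritic cells. Neutrophils averaged less than T cells, at 41.5 CPM of H2-DMa and 28.8 CPM of H2-DMb1. Dendritic subsets differed: mature cells averaged 51.2 CPM of H2-DMb1, and plasmacytoid cells (2 libraries) 12.0 CPM of H2-DMb2. H2-DMa averaged 636 ± 112 CPM in dendritic cells, 656 ± 125 in macrophages, 447 ± 114 in monocytes and 308 ± 50.1 in B cells, against 94.0 ± 85.4 in T cells. H2-DMb1 averaged 396 ± 94.2, 364 ± 74.5, 232 ± 58.6 and 93.8 ± 36.8 CPM in the same classes, against 44.9 ± 57.8 in T cells. Both were higher in dendritic cells than in B cells, H2-DMb1 by 2.06 ± 0.49 on the log2 scale (edgeR, adjusted p = 0.000774) and H2-DMa by 1.31 ± 0.32 (0.000984), and both were higher in macrophages than in B cells, by 1.96 ± 0.52 (0.00206) and 1.34 ± 0.34 (0.00136).

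H2-DMb2 had a lowest, median and highest level of 125, 250 and 303 CPM in B cells and of 80.1, 141 and 167 CPM in dendritic cells. In macrophages it was at 23.0, 18.5 and 33.3 CPM in SOX17KO untimed, 1wk and 2wk and at 16.1 and 14.95 CPM in Control 1wk and 2wk, below every dendritic value. Monocytes had 0 to 10.5 CPM, which overlapped with the 1.21 to 10.3 CPM of T cells. H2-DMb2 was 2.75 ± 0.37 higher on the log2 scale in dendritic cells than in macrophages (edgeR, adjusted p = 6.99e-07) and 3.40 ± 0.40 lower in macrophages than in B cells (2.83e-08; macrophages were lower than B cells for 3 members and 23.6% of genes). Between dendritic and B cells the difference of H2-DMb2 was -0.65 ± 0.31 (edgeR, adjusted p = 0.0774), and without both 1wk libraries -0.93 ± 0.36 (0.0388). Its excess in monocytes over T cells, 1.17 ± 0.44 (0.0198), was lost in DESeq2, without TMM, without doublet removal, without any of Control 1wk, Control 2wk or SOX17KO 2wk and without both 1wk libraries, with values of 0.71 to 1.01.

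As a share of the UMIs of both beta chain genes, H2-DMb2 took 71.9% ± 7.78 in B cells, 70.5% ± 7.09 in mature dendritic cells, 26.5% ± 5.91 in cDC2, 14.6% ± 4.06 in cDC1, 5.77% ± 2.49 in macrophages and 2.26% ± 1.46 in monocytes. The lowest of the 6 B cell values, 62.5% (10 of 16 UMIs, in Control 1wk), and the lowest of mature dendritic cells, 59.7%, were above the highest of cDC2, 34.4%. The highest macrophage value, 8.45%, was below every B cell, cDC2 and mature dendritic value. Capture need not be equal for the 2 genes, so the share is compared between classes and not read as a ratio of transcripts. The genes are close copies: 26.6% of the 50-base runs of the H2-DMb1 transcript and 25.2% of those of the H2-DMb2 transcript were in the other, but of the last 400 bases, where 3' reads start, the shares were 7.69% and 0%. Reads from the shared runs could be split between the genes or dropped in the authors' counting.

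**Figure D3:**
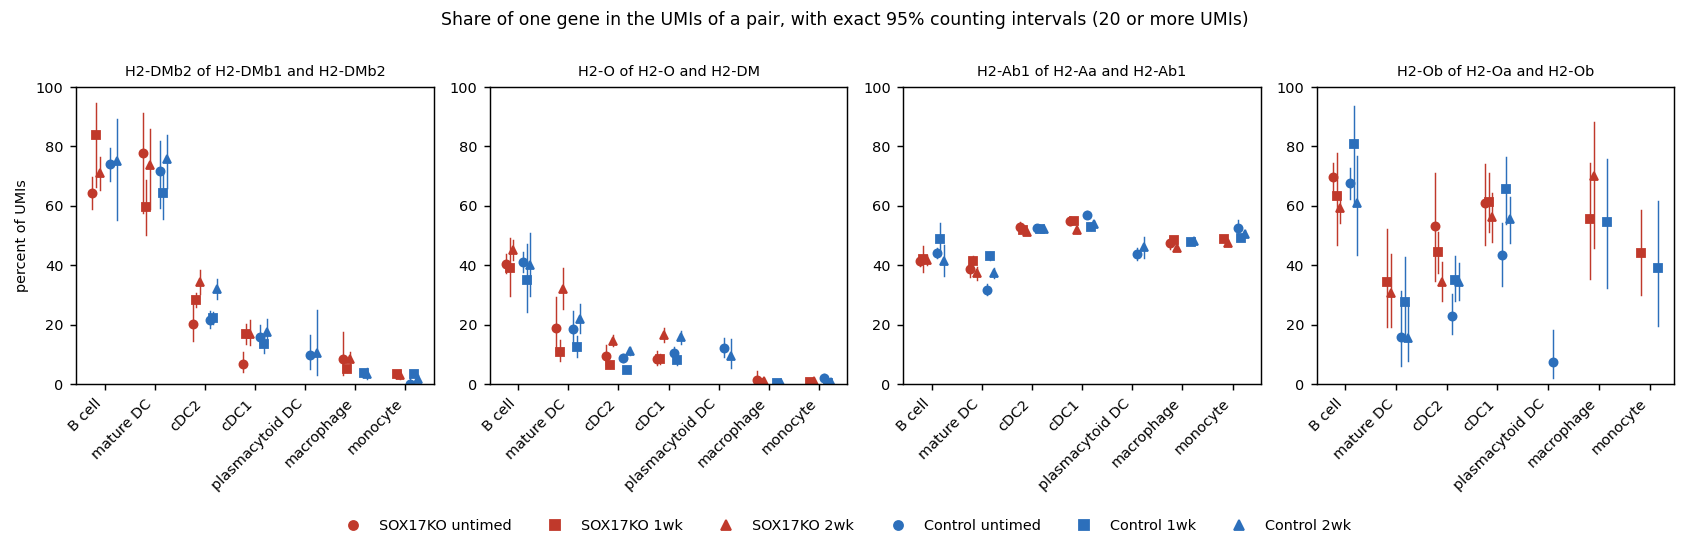
Share of the UMIs of a gene pair that a named gene takes, in percent, by class and dendritic subset, with 1 point per library whose pair had at least 20 UMIs and lines for the exact 95% counting intervals. H2-DMb2 takes 64.4% to 83.9% of the pair in the 5 B cell libraries drawn and 3.26% to 8.45% in macrophages; B cells of Control 1wk, with 10 of 16 UMIs, are not drawn.

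The DO chains were highest in B cells and dendritic cells, and in macrophages and monocytes they were within a few CPM of the T cell level. H2-Ob, the beta chain, had a lowest, median and highest level of 252, 272 and 336 CPM in B cells, above every dendritic value (25.8, 52.8 and 85.3 CPM). Macrophages had 46 UMIs of H2-Ob in all, at 2.13 to 8.05 CPM, and monocytes 1.12 to 3.32 CPM, against 0.862 to 4.34 CPM in T cells. The log2 difference of H2-Ob, macrophage minus T cell, was 0.80 ± 0.47 (edgeR, adjusted p = 0.139); it passed without both 1wk libraries at 1.51 (0.0423), without Control untimed at 1.19 (0.0161) and with the stricter gate at 1.45 (0.00895), and lay between 0.39 and 1.09 under the other alternatives. H2-Oa, the alpha chain, averaged 147 ± 54.3 CPM in B cells, 79.0 ± 31.3 in dendritic cells, 3.35 ± 2.51 in macrophages and 2.94 ± 0.990 in monocytes, against 6.11 ± 1.33 in T cells. B cells exceeded T cells by 6.81 ± 0.33 on the log2 scale for H2-Ob (edgeR, adjusted p = 1.09e-15), the largest member difference of that comparison, and by 4.60 ± 0.22 for H2-Oa (5.29e-16).

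Dendritic cells were 4.96 ± 0.27 higher than macrophages on the log2 scale for H2-Oa (edgeR, adjusted p = 1.15e-13) and 3.88 ± 0.37 higher for H2-Ob (2.01e-09). They were lower than B cells for 2 members (22.9% of genes), H2-Ob by 2.13 ± 0.27 (1.04e-07) and H2-Oa by 0.66 ± 0.19 (0.00372). The log2 difference of macrophages from B cells was -6.01 ± 0.39 for H2-Ob (5.06e-13) and -5.62 ± 0.29 for H2-Oa (1.16e-14). H2-Oa was also lower in macrophages than in T cells, by 1.03 ± 0.32 (0.00776), and in monocytes, by 0.70 ± 0.28 (0.0276). Those 2 calls rest on few UMIs, 32 in all macrophages and 61 in all monocytes; the macrophage call was lost without SOX17KO 1wk, at -0.75, the monocyte call without any of 4 libraries, at -0.57 to -0.73, and both without both 1wk libraries, at -0.66 and -0.53. H2-Ob had a UMI in 27.3% of B cells and 5.03% of dendritic cells thinned to 1000 UMIs, against 0.0833% of T cells.

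As a share of the UMIs of DO and DM chains together, DO took 40.1% ± 3.21 in B cells, 19.1% ± 7.53 in mature dendritic cells, 11.3% ± 3.78 in cDC1 and 9.15% ± 3.49 in cDC2, against 0.762% ± 0.512 in macrophages and 0.874% ± 0.607 in monocytes. The 35.1% to 45.1% of B cells lay above the 10.9% to 31.9% of mature dendritic cells. Of the DO UMIs, H2-Ob took 67.0% ± 7.80 in B cells, 57.2% ± 7.74 in cDC1, 37.3% ± 10.3 in cDC2 and 22.9% ± 9.002 in mature dendritic cells.

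Cd74, the invariant chain, followed the classical chains. It had a lowest, median and highest level of 6726, 10034 and 11365 CPM in dendritic cells and averaged 8406 ± 2343 CPM in macrophages (n = 5), 5933 ± 304 in B cells and 3072 ± 1112 in monocytes (n = 5), against 747 ± 784 in T cells. Macrophages and B cells overlapped and B cells and monocytes did not. On the log2 scale dendritic cells and macrophages differed by 0.24 ± 0.45 (edgeR, adjusted p = 0.732) and dendritic and B cells by 0.96 ± 0.43 (0.0561). Without both 1wk libraries the difference between dendritic and B cells was 0.95 ± 0.37 (edgeR, adjusted p = 0.0359). Cd74 had a UMI in 60.1% ± 12.0 of thinned monocytes and 98.9% ± 1.49 of B cells, against 13.4% ± 13.5 of T cells.

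Ciita, the transactivator, was highest in dendritic and B cells. Its lowest, median and highest levels were 148, 229 and 279 CPM in dendritic cells and 138, 174 and 217 CPM in B cells, whose ranges overlapped. In macrophages it was at 84.3, 82.0 and 135 CPM in SOX17KO untimed, 1wk and 2wk and at 80.7 and 120 CPM in Control 1wk and 2wk, below every B cell value. Monocytes averaged 67.5 ± 16.6 CPM (n = 5), against 14.4 ± 15.7 CPM in T cells. Ciita was 4.66 ± 0.41 higher in dendritic than in T cells on the log2 scale (edgeR, adjusted p = 9.27e-11) and 1.14 ± 0.37 higher in dendritic cells than in macrophages (0.0156), a call lost without SOX17KO 1wk, at 1.02, and without both 1wk libraries, at 0.77. The difference of macrophages from B cells was -0.63 ± 0.40 (edgeR, adjusted p = 0.186).

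Among the dendritic subsets, mature dendritic cells (Ccr7, Fscn1, Ccl22 and 5 more markers) held less class II mRNA than cDC1, the cross-presenting subset, and cDC2, the subset known for priming CD4 T cells. Mature cells were lower than cDC2 for 9 members (25.6% of 7148 genes), and lower than cDC1 for 8 (28.5%) and higher for 1, H2-DMb2 (27.4%). These comparisons were added after the class levels were seen and ran over 364 mature, 331 cDC1 and 751 cDC2 cells, with at least 28 of each in every library. H2-DMb1 moved most. It was at 31.8, 66.1 and 40.2 CPM in mature cells of SOX17KO untimed, 1wk and 2wk and at 32.1, 80.1 and 56.8 CPM in those of Control. In cDC2 it was at 462, 584 and 388 CPM in SOX17KO untimed, 1wk and 2wk and at 553, 741 and 395 CPM in Control. Every mature value was below every cDC2 value. The log2 difference was -3.09 ± 0.17 from cDC2 (edgeR, adjusted p = 5.04e-11) and -3.08 ± 0.17 from cDC1 (3.07e-11).

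**Figure D4:**
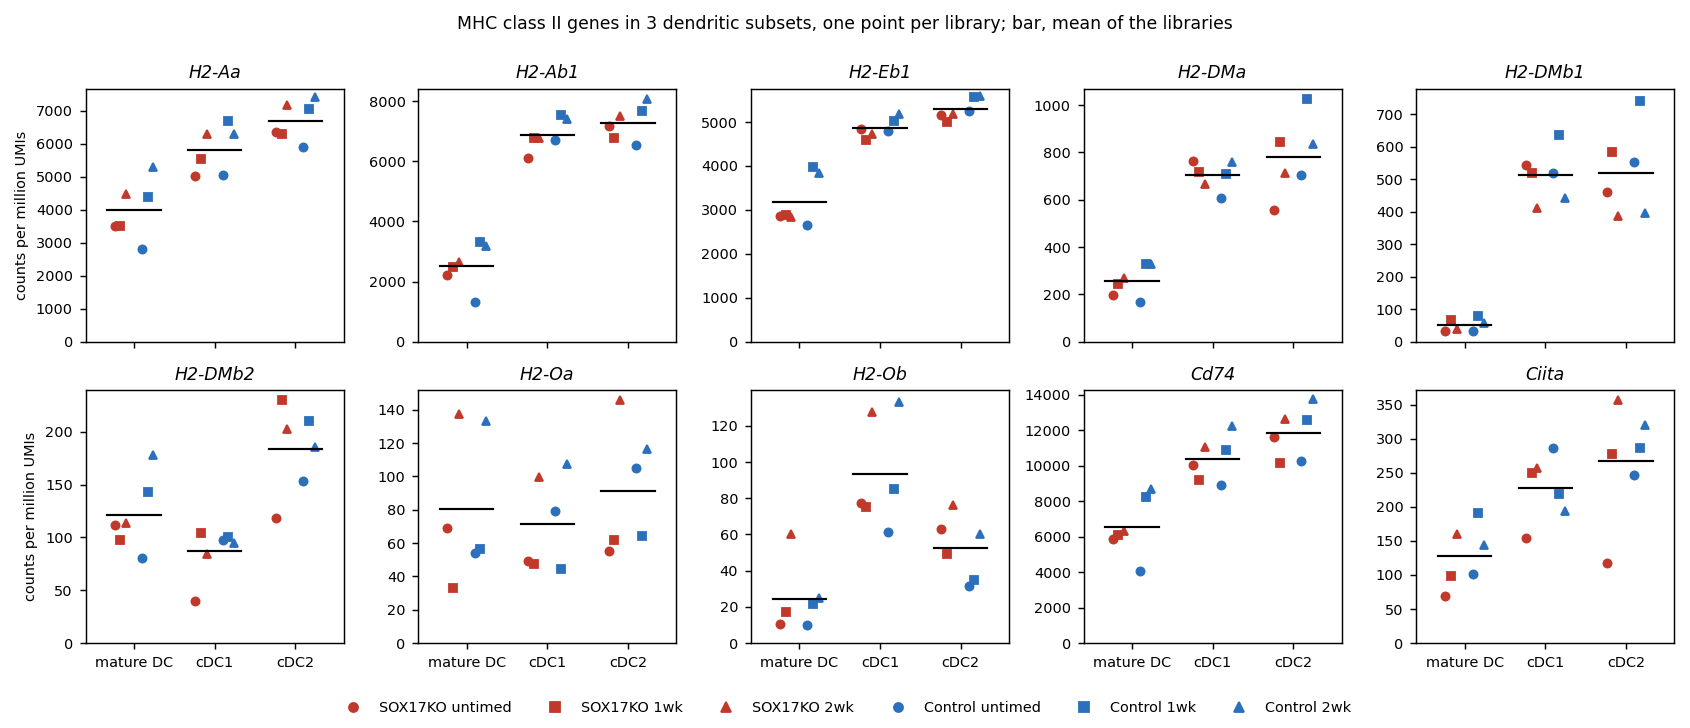
Level of each class II gene in mature dendritic cells, cDC1 and cDC2, in CPM on linear axes from 0, with 1 point per library and bars at the means of 6 libraries. H2-DMb1 lies at 31.8 to 80.1 CPM in mature cells and 388 to 741 CPM in cDC2, and H2-Oa overlaps between the subsets.

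The members of each chain group fell unequally in mature cells. H2-Ab1 averaged 2528 ± 726 CPM in mature cells, against 6888 ± 522 in cDC1 and 7289 ± 576 in cDC2, and was lower than in cDC2 by 1.36 ± 0.12 on the log2 scale (edgeR, adjusted p = 2.40e-08). Its partner H2-Aa averaged 3998 ± 891 CPM, against 5820 ± 704 and 6703 ± 594, and was lower by 0.56 ± 0.08 (5.50e-06). H2-Ab1 thus took 38.3% ± 3.91 of the UMIs of the pair in mature cells, against 54.3% ± 1.78 in cDC1 and 52.1% ± 0.597 in cDC2, and the highest mature value, 43.1%, was below the lowest of cDC2, 51.2%. H2-DMa fell by 1.41 ± 0.13 relative to cDC2 (6.47e-08), Ciita by 0.87 ± 0.16 (0.000219), H2-Ob by 0.91 ± 0.22 (0.00209), Cd74 by 0.67 ± 0.09 (4.20e-06) and H2-Eb1 by 0.54 ± 0.08 (1.96e-05).

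The beta chain gene H2-DMb2 went against H2-DMb1 in mature cells relative to cDC1, but was lower like it, by less, relative to cDC2. It averaged 121 ± 34.7 CPM in mature cells, 86.8 ± 24.0 in cDC1 and 183 ± 41.1 in cDC2. Mature cells exceeded cDC1 by 0.66 ± 0.18 on the log2 scale (edgeR, adjusted p = 0.00401) and lay below cDC2 by 0.43 ± 0.16 (0.0348), a call lost without any of 4 libraries, with values of -0.33 to -0.48, and without both 1wk libraries, at -0.32. H2-Oa did not pass between mature cells and cDC2 (-0.09 ± 0.16, adjusted p = 0.685). cDC1 were lower than cDC2 for 2 members (16.4% of genes), H2-DMb2 by 1.09 ± 0.16 (3.30e-05) and H2-Aa by 0.22 ± 0.07 (0.0307), and higher for 1 (14.9%), H2-Ob by 0.87 ± 0.17 (0.000559). H2-Ob averaged 93.3 ± 29.9 CPM in cDC1 and 52.4 ± 17.3 in cDC2. The H2-Aa call was lost without Control 2wk or SOX17KO 1wk and without both 1wk libraries, at -0.23 to -0.27.

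Plasmacytoid dendritic cells, which make interferon and present little, had at least 20 cells only in Control untimed and Control 2wk and were not tested. H2-Aa was at 1222 and 1266 CPM there, H2-DMb2 at 12.1 and 11.8 CPM and Ciita at 34.4 and 32.5 CPM. These were below every value of mature cells, cDC1 and cDC2. Of the DO chains, H2-Oa averaged 48.4 CPM in plasmacytoid cells and H2-Ob 2.02 CPM, from 4 UMIs in all. H2-DMb1, at 112 and 100.3 CPM, lay above every value of mature cells, and H2-DMa, at 263 and 336 CPM, was not below the 169 to 330 CPM of mature cells, while both were below every value of cDC1 and cDC2.

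Between genotypes, no member passed the test in any class. In dendritic cells H2-Aa was at 5136, 5378 and 6115 CPM in SOX17KO untimed, 1wk and 2wk and at 3875, 6258 and 6085 CPM in Control. SOX17KO was higher in the untimed pair, lower at 1wk and close at 2wk. Fitted over the 3 collections, the log2 difference was 0.05 ± 0.21 for H2-Aa, and the other members lay between -0.14 (H2-Oa) and 0.54 ± 0.24 (H2-Ob; edgeR, adjusted p = 0.716), with 0% of 10186 genes called. H2-Ob was at 58.7, 46.9 and 85.3 CPM in SOX17KO dendritic cells and at 25.8, 40.3 and 65.6 CPM in Control ones, higher in SOX17KO in all 3 pairs.

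edgeR called 0 of the members and 0% of genes in T cells, cDC1, cDC2, mature dendritic cells and neutrophils too. In B cells 0 members and 0.0944% of genes were called, in macrophages 0 and 0.0193%, and in monocytes 0 and 0.186%; the last 2 classes and neutrophils were fitted over the 1wk and 2wk pairs only. DESeq2 called 0 members in each class, and at an unadjusted p under 0.05 edgeR had 1, H2-Ob in cDC2 at 0.52 ± 0.22. The SE of a member's difference in dendritic cells was 0.12 (H2-DMb2) to 0.25 (Cd74) on the log2 scale. Nor did the difference between genotypes in macrophages, monocytes or B cells depart from that in dendritic cells for any member (0 of 10 in each, 0% of 10404 genes, 0 members at an unadjusted p under 0.05).

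Within a collection the summed level of the classical chains gave a log2 ratio, SOX17KO over Control, with an interval for counting error only and no test. In dendritic cells it was 0.42 (0.39 to 0.45) in the untimed pair, -0.21 (-0.23 to -0.19) at 1wk and -0.04 (-0.06 to -0.02) at 2wk. Plasmacytoid cells were 0.820% of SOX17KO and 34.3% of Control dendritic cells in the untimed pair, 5.28% and 4.46% at 1wk and 7.46% and 13.3% at 2wk. Their part in the untimed ratio was not tested. Within cDC2 the ratios were 0.08, -0.17 and -0.09, within cDC1 -0.06, -0.19 and -0.08, and within mature cells 0.34, -0.40 and -0.31. In macrophages they were -0.15 at 1wk and 0.18 at 2wk, and in monocytes -0.29 and 0.28. The sign thus turned between collections in both. It turned in T cells too, at 1.06 in the untimed pair, -0.89 at 1wk and 0.84 at 2wk, and the T cell level was 27.7% to 35.2% of the monocyte mean for the classical chains and 9.40% to 9.85% of the macrophage mean; its part was not tested. In B cells the ratio was positive in all 3 pairs, at 0.21, 0.15 and 0.17, with a 1wk interval of -0.02 to 0.32.

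**Figure D5:**
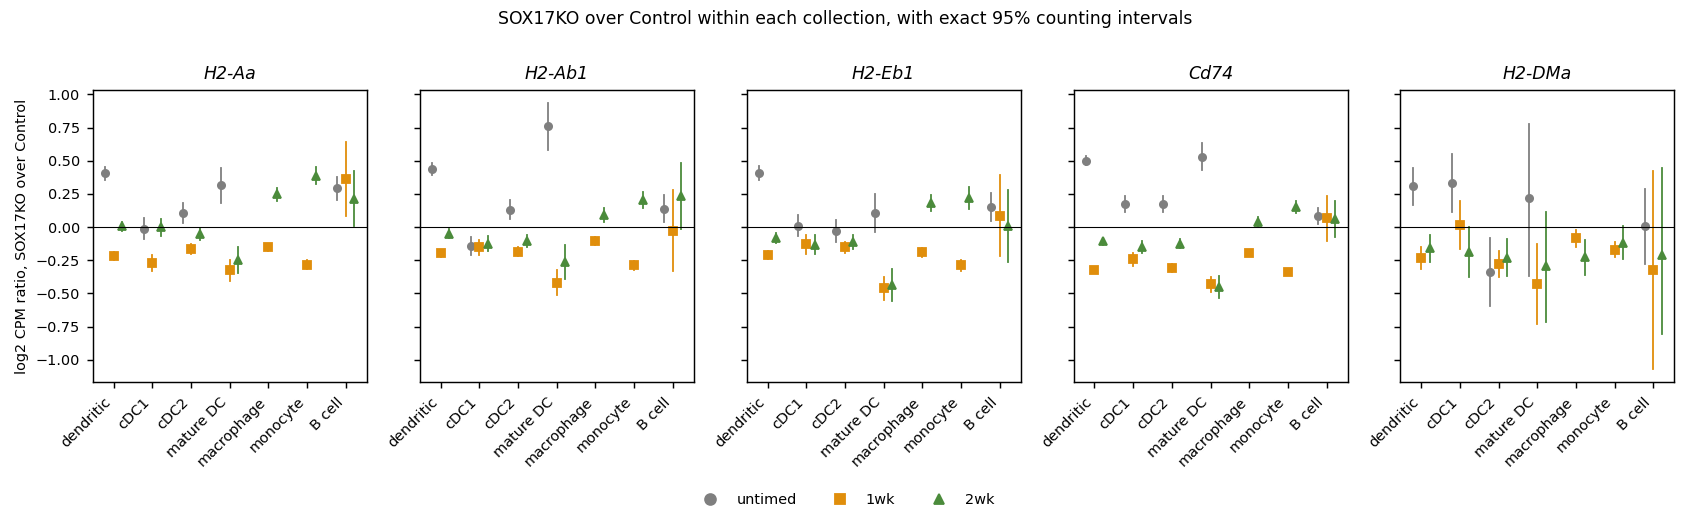
Log2 ratio of CPM, SOX17KO over Control, for H2-Aa, H2-Ab1, H2-Eb1, Cd74 and H2-DMa in 4 classes and 3 dendritic subsets within each collection, with 95% counting intervals. For H2-Aa the points lie at 0.41, -0.22 and 0.01 in dendritic cells of the untimed, 1wk and 2wk pairs.

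Across collections, macrophages held more Cd74, H2-Aa and Ciita mRNA at 2wk than at 1wk in both genotypes. Cd74 was at 10500 and 10210 CPM at 2wk in SOX17KO and Control macrophages, against 5484 and 6289 CPM at 1wk. H2-Aa was at 6624 and 5582 CPM at 2wk, against 3337 and 3706 CPM. Macrophages rose for 3 members at 2wk (2.63% of genes rose), Cd74 by 0.81 ± 0.22 on the log2 scale (edgeR, adjusted p = 0.0435), H2-Aa by 0.78 ± 0.22 (0.0437) and Ciita by 0.64 ± 0.17 (0.0344). H2-Ab1 and H2-Eb1 missed the threshold at 0.72 (0.0567) and 0.64 (0.0816). With classes taken from clusters, none of these calls was made, at values of 0.97 to 1.11, and DESeq2 did not call Ciita. Monocyte markers in macrophages were at 2455 and 4366 CPM at 2wk in SOX17KO and Control, against 3526 and 3588 CPM at 1wk; their part was not tested. With 1 library per genotype and collection, collection cannot be told apart from the processing day or sort.

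In monocytes no member passed between 2wk and 1wk in edgeR (3 at an unadjusted p under 0.05, DESeq2 0), beside 14.6% of genes, with Cd74 at 0.41 ± 0.17 (adjusted p = 0.118). In dendritic cells 0 members passed at 2wk against 1wk (0% of genes, 3 members at an unadjusted p under 0.05, DESeq2 0). H2-Oa there was at 125 and 110 CPM at 2wk in SOX17KO and Control, against 52.1 and 57.0 CPM at 1wk, a log2 difference of 0.93 ± 0.19 (edgeR, adjusted p = 0.155). The same order held within subsets: in cDC2 H2-Oa was at 146 and 116 CPM at 2wk, against 61.8 and 64.1 CPM, and in mature cells at 137 and 133 CPM, against 33.0 and 56.7 CPM. H2-DMb1 went the other way, at -0.82 ± 0.22 (0.185). In untimed dendritic cells H2-DMb2 was lower than at 1wk by 1.05 ± 0.15 (edgeR, adjusted p = 0.0370), beside 2.42% of genes. It was at 80.1 and 91.7 CPM, against 167 and 166 CPM. cDC2 were 24.6% and 31.4% of untimed dendritic cells in SOX17KO and Control, against 53.1% and 53.8% at 1wk. The part of this makeup was not tested. Untimed against 1wk, 0 members passed within cDC1, cDC2 and mature cells, where edgeR had 0, 3 and 4 members at an unadjusted p under 0.05. Genes higher and lower there were 12 and 19 of 6775 in cDC1 and 114 and 176 of 8109 in cDC2. In mature cells they were 93 and 85 of 5558. B cells gave 0 members at 2wk against 1wk (3.12% of genes; DESeq2 0, and 1, H2-Eb1 at -0.60 ± 0.21, at an unadjusted p under 0.05). Neutrophils were lower for 1 member, H2-DMa, by 2.21 ± 0.57 (0.0284; 5.46% of genes were lower), at 21.9 and 4.11 CPM at 2wk in SOX17KO and Control, against 52.5 and 110 CPM, where 4.11 CPM is 1 UMI. DESeq2 (adjusted p = 0.17) and the stricter gate did not make this call, and with classes from clusters 3 members were called higher instead. Neutrophils' macrophage markers were at 102 and 86.4 CPM at 2wk, against 286.5 and 558 CPM.

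The other genes of the pathway, 22 of 26 listed symbols found in the matrix, did not move as a block with the members. Against T cells, dendritic cells were higher for 13 of the 22, beside 26.8% of all genes, and lower for 5, beside 29.9%. Of 9 genes for factors at class II promoters, 2 were higher, Nfya (a CCAAT-binding subunit) by 0.90 and Rfx5 (an X-box subunit) by 0.76 on the log2 scale, and 3 were lower, near those shares of all genes. Of 6 endosomal proteases and reductases, dendritic cells were lower than macrophages for 5 (19.6% of all genes were lower) and higher for 0 (18.2%), with Ctsd at -3.90, Lgmn at -3.43, Ctsb at -2.90, Ctss, which cuts the invariant chain, at -1.88 and Ctsl at -1.76. Macrophages exceeded B cells for all 6, beside 34.8% of all genes.

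Between mature cells and cDC2, 2 of 3 costimulatory genes were higher in mature cells (1789 of 7148 genes were higher), Cd40 by 1.80 and Cd80 by 0.56, and Cd86, at -0.06, did not pass the test. March1, whose ligase takes class II off the surface, was lower by 4.51 in mature cells than in cDC2 and by 5.84 than in cDC1, and Cd83, which counters it, was higher by 0.56 and 0.79. H2-Eb2, a further beta chain gene beside H2-Eb1, was higher by 3.52 in mature cells than in cDC2 and by 7.22 in B cells than in T cells, both with adjusted p under the threshold in edgeR.

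Over the 33 class by library sums and 10407 genes, other than members and gate markers, the patterns most like the summed classical chains were those of Plekho1 (Pearson r = 0.931 of log2 CPM), Scpep1 (0.916), Ly86 (0.899), Tbc1d9 (0.899) and Tcf4 (0.896). The patterns most like the summed DO chains were those of Snn (0.938), Prr5 (0.931), H2-Eb2 (0.930), Spib (0.930) and Fchsd2 (0.920). These correlations describe sums that share libraries and cell classes, and no p is given.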

How the data were processed

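The deposited matrices hold UMI counts per gene and barcode; per the submitters' processing notes the authors used Cell Ranger 6.0.1 with mm10, while the matrix headers name version 7.0.1. The annotation release and the use of intronic reads are not given in the sources used here. Here, barcodes with under 200 genes or over 10% mitochondrial UMIs were removed, as were the top doublet scores, 0.8% per 1000 barcodes, from simulated doublets, which left 32167 of 34607 barcodes. A cell joined a class with at least 3 of 8 markers and 2 more than of any other list. Counts were summed per library and class and tested with edgeR 4.0.16 (TMM, quasi-likelihood, R 4.3.3), with DESeq2 1.42.0 as an alternative. Class fits had the library as a block. Genotype fits had the collection as a block, since both genotypes carry each collection's label. Adjusted p-values cover all genes tested, at a threshold of 0.05. CPM are counts per 1000000 UMIs of a class in a library, and intervals (Clopper-Pearson or conditional binomial, 95%) cover counting error only.

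All 10 members are described in every class; partner genes were named where called, and the 5 nearest patterns by Pearson correlation. Members, gates and lists were chosen with earlier results of these data known. Tests on data simulated from these libraries were run before the fits. Alternatives changed the tool, scaling, filter, gate, clusters, doublets, mitochondrial limit and libraries. The fits of macrophages, monocytes and neutrophils over 2 pairs, the subset fits, macrophages against B cells, NK cells and the fits without both 1wk libraries were chosen after seeing the data.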

Additional observations from a re-analysis of the deposited data

Results flagged for a closer look

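The SOX17KO over Control difference of the summed H2-Aa, H2-Ab1 and H2-Eb1 turned between collections in 5 classes, T cells among them, and 2 dendritic subsets, with counting intervals on both sides of 0; with 1 library per genotype and collection this difference between collections was not tested. In log2 units it was 0.42 in the untimed pair, -0.21 at 1wk and -0.037 at 2wk in dendritic cells, 0.077, -0.17 and -0.088 in cDC2, and 0.34, -0.40 and -0.31 in mature dendritic cells. It was -0.15 at 1wk and 0.18 at 2wk in macrophages, -0.29 and 0.28 in monocytes, and -1.13 and 3.21 in neutrophils. The last value rests on 250 UMIs in SOX17KO neutrophils, 205 of them in 1 of 201 cells, and 16 UMIs in 163 Control neutrophils; without the cell with most in each library, left out after seeing the data, it was 0.97. In T cells the difference was 1.06 in the untimed pair, -0.89 at 1wk and 0.84 at 2wk.

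Plasma cells, outside the classes compared, held more Cd74 and H2-Ab1 than T cells of the same library beyond counting error. Cd74 was at 3174 CPM in the untimed SOX17KO and 2147 CPM in the untimed Control library, against 553 and 268 CPM in T cells, from 53 and 22 plasma cells. H2-Ab1 was at 327 and 200.1 CPM, against 249 and 123 CPM in T cells, while H2-Aa was at 157 and 50.02 CPM and Ciita had 2 and 0 UMIs.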

How the results depend on the processing

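Of 368 recomputed counts of called members 332 stayed within 1.5 times the count reported, 27 were larger and 9 smaller. All 10 members were called in dendritic and in B cells against T cells, and 0 between genotypes in every class, under every alternative run; that holds for the fits without the collection (no replicate block), which called 0. Macrophages against monocytes (2 reported) gave 5 with DESeq2, without TMM, without the expression filter, with the stricter gate and without doublet removal, 0 with clusters, and 1 to 2 with 1 library left out. Neutrophils against T cells (0) gave 1, H2-DMa, without TMM, without the filter, with the stricter gate and with clusters. cDC1 against cDC2 (3) gave 5 with the stricter gate. At 2wk against 1wk, macrophages (3) gave 5 without TMM, with the stricter gate and without doublet removal and 0 with clusters. Monocytes (0) gave 1 without TMM, 2 without the filter and 1 with clusters. Neutrophils (1) gave 0 with DESeq2 and the stricter gate, 6 without TMM, filter or doublet removal, 4 at the 5% mitochondrial limit and 3 with clusters, where the 3 were higher at 2wk and all others lower. T cells (8) gave 3 with clusters, dendritic cells (0) and cDC2 (0) gave 2 and mature cells (0) 1 without the filter. Untimed against 1wk, dendritic cells (1) gave 2 without the filter and 4 with clusters, cDC2 (0) 2 without the filter, and T cells (7) 3 with the stricter gate and 0 with clusters.

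Of 1591 log2 differences of members, 1473 kept direction and side of the threshold, 44 passed it, 69 lost it and 5 turned: Cd74 in untimed against 1wk T cells with clusters (0.17), H2-DMb2 between genotypes in macrophages with clusters (-0.16), H2-Oa in mature cells against cDC2 with 1 library left out (-0.20 to 0.059), and Cd74 (-0.033) and H2-Aa (-0.066) in dendritic cells against macrophages without both 1wk libraries. Less the T cell level of the same library, mean CPM fell below 0 for H2-Oa in macrophages (-2.52) and monocytes (-3.54), for H2-Ob in monocytes (-0.017), and in neutrophils for H2-Aa (-190), H2-Ab1 (-183), H2-Eb1 (-140), H2-DMa (-60.9), H2-DMb1 (-20.9), H2-DMb2 (-3.16), H2-Oa (-3.22), Cd74 (-304) and Ciita (-10.5). Of 120 shares of cells with a UMI, 71 moved with the thinning by more than the spread between libraries. The cause of these changes was not tested. Totals of 32 to 61 UMIs over all libraries limit H2-Oa and H2-Ob in macrophages and monocytes, and 20 to 25 cells per library limit B cells at 1wk and in Control 2wk.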

Other observations

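Natural killer cells, chosen after seeing the data as a further class that should lack class II, did not follow T cells in every library. Their summed H2-Aa, H2-Ab1 and H2-Eb1 was at 104 CPM in SOX17KO 1wk and 1666 CPM in Control 1wk, against 1740 and 3233 CPM in T cells, and at 30.6 and 33.7 CPM at 2wk in SOX17KO and Control. Gated fibroblasts, which the CD45 sort should have removed, held 519 and 311 CPM at 1wk in SOX17KO and Control and 345 and 664 CPM at 2wk. Their Cd74 was at 321, 207, 227 and 526 CPM in the same libraries, and their H2-Oa and H2-Ob together had 7 UMIs in 5 libraries.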
